A study of Mus musculus with 40 samples.

Results

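The genes described here are 10 of the 21347 in the deposited table, taken by symbol for their known part in cutting, transporting and loading peptides for MHC class I molecules or in switching those genes on. They are the peptide transporter genes Tap1 and Tap2, the loading chaperone genes Tapbp and Tapbpl, the immunoproteasome subunit genes Psmb8, Psmb9 and Psmb10, the proteasome activator genes Psme1 and Psme2, and the class I transactivator gene Nlrc5. All 10 passed the filter on low values, which kept 14701 genes with at least 1 per M in at least 3 libraries (per M is reads per mega-read of a scaled library size, the unit of the deposited values). The 40 RNA-seq libraries came from 4T1 cells, a mouse mammary carcinoma line of BALB/c origin, cultured with T cells from C57Bl6 spleens (18 libraries) or alone (22 libraries). Wells were polystyrene coated at 250 µg/ml with collagen I (3 libraries with T cells and 4 alone), collagen IV (4 and 4), fibronectin (4 and 5) or vitronectin (3 and 4), or left uncoated (4 and 5). Carcinoma cells were seeded at 10000 per cm2, T cells were added the next day at 80000 per cm2 for 24 h, and interleukin 2 at 30 U/mL went into wells of both kinds. Each replicate was 1 of 5 experiments. Experiment 1 holds only uncoated and fibronectin wells, and experiment 3 holds 1 co-culture, on collagen IV. Floating and attached cells were extracted together, so the reads of a co-culture come from both kinds of cell. T cells on their own were not analysed here, and which of the cells made a given read of these 10 genes cannot be told apart. In such a mixture fewer cells of a type and less RNA per cell cannot be told apart either.

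MHC class I molecules show short peptides from inside a cell to CD8 T cells. The proteasome cuts proteins into these peptides, and interferon gamma makes cells swap its 3 constitutive catalytic subunits for Psmb8, Psmb9 and Psmb10 and add the Psme1 and Psme2 activator ring. Tap1 and Tap2 form the pump that carries peptides into the endoplasmic reticulum, where tapasin (Tapbp) holds the empty class I molecule at the pump and the tapasin-related protein (Tapbpl) edits its peptide. Nlrc5 is a transcriptional coactivator of class I heavy chain genes and of several genes of this set. Low class I processing is a known way for tumour cells to avoid T cells.

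Depth was 18.95 to 47.73 M reads in 39 libraries and 239.13 M in the co-culture of experiment 5 on collagen IV. At these depths a count of 0 allows 0.0124 to 0.158 per M, far below the level of every gene of the set. The sum of 20 T cell markers was 22.7 to 3681 per M in co-cultures and 2.86 to 5.46 per M in 4T1 alone. The 5 co-cultures of experiment 4 had 1213 to 3681 per M, the 2 of experiment 1 had 238 and 346 per M, and the other 11 had 22.7 to 60.7 per M. In 4T1 alone of experiment 4, 8 of the 20 markers, Cd3e and Cd4 among them, were at 0. With T cells in experiment 4 the sum of 19 epithelial markers was 1994 to 3115 per M, against 3435 to 4141 per M in 4T1 alone of that experiment. In its 5 co-cultures B cell markers (8 genes) summed to 45.4 to 141 per M and red cell and platelet markers (7 genes) to 8.74 to 40.3 per M, against at most 0.285 and 1.89 per M in 4T1 alone of any experiment. Macrophage and dendritic cell markers (6 genes) summed, in experiment 4, to 6.02 to 7.70 per M with T cells and 2.61 to 4.07 per M alone, and to 3.77 to 5.83 per M and 2.59 to 5.03 per M in the other experiments. The natural killer cell list had only 2 genes in the table, at 7.43 to 20.1 per M with T cells and 4.5 to 5.96 per M alone in experiment 4. In experiment 4 the sums of the T cell, B cell, red cell, macrophage and natural killer lists were thus higher in every co-culture than in any well without T cells, and their part in the results was not tested. The labels also carry a library tag whose meaning is not given: in experiment 4 it reads R3 for 0 of 5 co-cultures and for 5 of 5 wells without T cells. In experiment 2 it reads R2 for 5 of 5 co-cultures and for 1 of 5 wells without T cells. Within experiment 4 the tag and the T cells cannot be told apart. In experiment 1 no library of either arm carries a tag.

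On build mm10 (GENCODE M21), 5 of the 10 genes lie on chromosome 17 and 2 next to each other on chromosome 14. Tapbp is at chr17:33915899-33929292. Psmb9 (chr17:34181987-34187764, minus strand) and Tap1 (chr17:34187553-34197225, plus strand) start head to head and overlap by 212 bp. The library kit keeps no strand, so reads in those 212 bp cannot be assigned to one of the 2 genes by strand. Psmb8 (chr17:34197721-34201454) follows Tap1 by 495 bp and Tap2 (chr17:34203527-34216321) follows Psmb8 by 2072 bp. Psme1 (chr14:55578123-55581529) and Psme2 (chr14:55587441-55591113) are 5911 bp apart on opposite strands. Nlrc5 (chr8:94434356-94527272), Psmb10 (chr8:105935735-105938444) and Tapbpl (chr6:125223933-125231860) lie apart from the others.

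Promoters were looked at because Tap1 and Psmb9 share theirs and because several genes of the set rose together. RefSeq promoter windows on GRCm38.p6, 250 bases before to 50 after each start, were used for 7 of the 10 genes, all but Tap2, Tapbpl and Nlrc5. The RefSeq starts of Psme1 (chr14:55578494) and Psmb9 (chr17:34187330) differ from the GENCODE starts above. The windows of both genes lie inside their GENCODE spans. The RefSeq start sites of Tap1 and Psmb9 are 226 bases apart, and 275 of the 300 bases of their windows are the same DNA. The overlap of these genes given above is that of their GENCODE spans. Searched on both strands were TGACGTCA, the cyclic AMP response element, and an interferon-stimulated element pattern made of GAAA, any 2 bases and GAAA. The interferon-stimulated element pattern occurs in 3.44% and the cyclic AMP response element in 1.79% of 32851 promoter windows. The interferon pattern was found on the minus strand, from base 10 after the RefSeq start of Psme1. The windows of the other 6 genes, Tap1 and Psmb9 among them (Psme2 has 2), held neither pattern. The 250 bases before the RefSeq start of Tap1 (chr17:34187306-34187555, plus strand), which run back past that of Psmb9, and 269 bases that end 19 bases past that of Psme1 (chr14:55578244-55578512, plus strand) read 5′ to 3′ as follows, with the motif match in capitals.
Tap1: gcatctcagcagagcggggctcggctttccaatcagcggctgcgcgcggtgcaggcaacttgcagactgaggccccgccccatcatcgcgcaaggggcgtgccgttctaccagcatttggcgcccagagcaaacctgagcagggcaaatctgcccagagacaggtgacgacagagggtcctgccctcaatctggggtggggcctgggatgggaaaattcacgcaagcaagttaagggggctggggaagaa
Psme1: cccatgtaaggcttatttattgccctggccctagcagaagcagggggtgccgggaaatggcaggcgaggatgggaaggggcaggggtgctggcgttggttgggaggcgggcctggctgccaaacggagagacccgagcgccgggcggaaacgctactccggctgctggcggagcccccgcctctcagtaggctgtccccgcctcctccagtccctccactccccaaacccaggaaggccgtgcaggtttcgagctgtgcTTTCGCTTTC

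In 4T1 alone the set spans a wide range of levels. Per kb of exon, Psme2 averaged 81.4 ± 8.88, Psme1 63.6 ± 7.66, Tapbp 51.8 ± 7.50 and Psmb10 47.3 ± 7.19 per M (SD, n = 22 libraries). Psmb8 averaged 17.4 ± 4.16, Tapbpl 6.12 ± 1.28, Tap2 5.99 ± 1.20, Psmb9 4.21 ± 1.30, Tap1 2.48 ± 0.569 and Nlrc5 1.71 ± 0.416 per M per kb. The constitutive catalytic subunit genes averaged 148 ± 9.41 for Psmb6, 117 ± 9.65 for Psmb5 and 79.1 ± 8.56 for Psmb7 on the same scale. Thus the activator genes stood near Psmb7 in level, Tapbpl, Tap2 and Psmb9 overlapped in range, and Tap1 and Nlrc5, which overlapped each other, were lowest. Experiments differed in some of these levels before any T cell was added. Tap1 averaged 5.11 ± 0.691 per M in 4T1 alone of experiment 3 and 9.35 ± 1.23 per M in that of experiment 4 (SD, n = 5 each). Psmb8 averaged 20.7 ± 3.12 and 37.5 ± 5.38 per M, and Nlrc5 10.5 ± 0.730 and 17.3 ± 1.33 per M, in 4T1 alone of experiments 3 and 4 (SD, n = 5 each). For these 3 genes the 5 wells of experiment 4 all lay above the 5 wells of experiment 3. Psmb9, Tapbp, Tapbpl, Psmb10, Psme1 and Psme2 overlapped between the same wells. For example, Psmb9 had 6.54 and Tapbp 168 per M on collagen IV in experiment 3. On uncoated plastic in experiment 4 they had 5.96 and 154 per M. The share of all genes without overlap was not counted.

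With T cells added, both pump genes, 1 immunoproteasome gene and the transactivator gene were higher on average over the 5 substrates, and the other 6 genes did not pass the test. Tap1 rose by 1.25 ± 0.32 on the log2(value + 1) scale (SE, adjusted p = 0.0104 by limma), Nlrc5 by 0.92 ± 0.29 (0.0235), Psmb9 by 0.71 ± 0.22 (0.0242) and Tap2 by 0.56 ± 0.14 (0.0104). Thus 4 of 10 passed in the direction of higher and 0 lower, where 13.1% of all genes tested were called higher, 12.2% lower and 25.2% in either direction. The median difference was 0.296 over the set and −0.01 over all genes tested. The main fit leaves out the experiment, and experiment 3 holds 5 wells without T cells and 1 co-culture. Its differences can thus also carry differences between experiments. Over the 18 pairs of wells that share substrate and experiment the mean differences were smaller. They were 1.15 for Tap1, 0.85 for Nlrc5, 0.61 for Psmb9 and 0.47 for Tap2. The experiment number is shared between wells, and with it as a block 6 genes of the set were higher and 1 lower, where 45.8% of all genes were called (22.4% higher and 23.4% lower). The block added Psmb8 (0.21 ± 0.08, adjusted p = 0.0275) and Tapbpl (0.22 ± 0.09, 0.0464) as higher and Psmb10 (−0.14 ± 0.05, 0.0219) as lower. By edgeR on recovered reads 5 of 10 were higher, Psmb8 with the 4 above, and Tap1 (2.04) and Nlrc5 (1.49) differed by more than by limma, where 26.9% of all genes were called (17.2% higher and 9.63% lower). With values scaled to epithelial markers, which moves the median of all genes to 0.17, limma called 372 of all 14701 genes. Only Tap1 of the 4 passed there, and Tap2 (0.75, adjusted p = 0.0519), Psmb9 (0.89, 0.0704) and Nlrc5 (1.11, 0.0709) did not. Without experiment 4, Tap1 (0.58, adjusted p = 0.00524) and Tap2 (0.36, 0.00397) still passed and Nlrc5 (0.35, 0.0855) and Psmb9 (0.32, 0.0841) did not, where 2.92% of all genes were called. With the block and without experiment 4, Tap1, Tap2, Nlrc5 and Psmb9 passed as higher and Psmb10 as lower, where 10.4% of genes were called. Leaving out only the co-culture of experiment 4 on collagen I, or only that on vitronectin, left Nlrc5 (adjusted p = 0.0613 and 0.066) and Psmb9 (0.0639 and 0.0641) short of the threshold, as did leaving out experiment 3 (0.0656 and 0.0773).

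**Figure D1:**
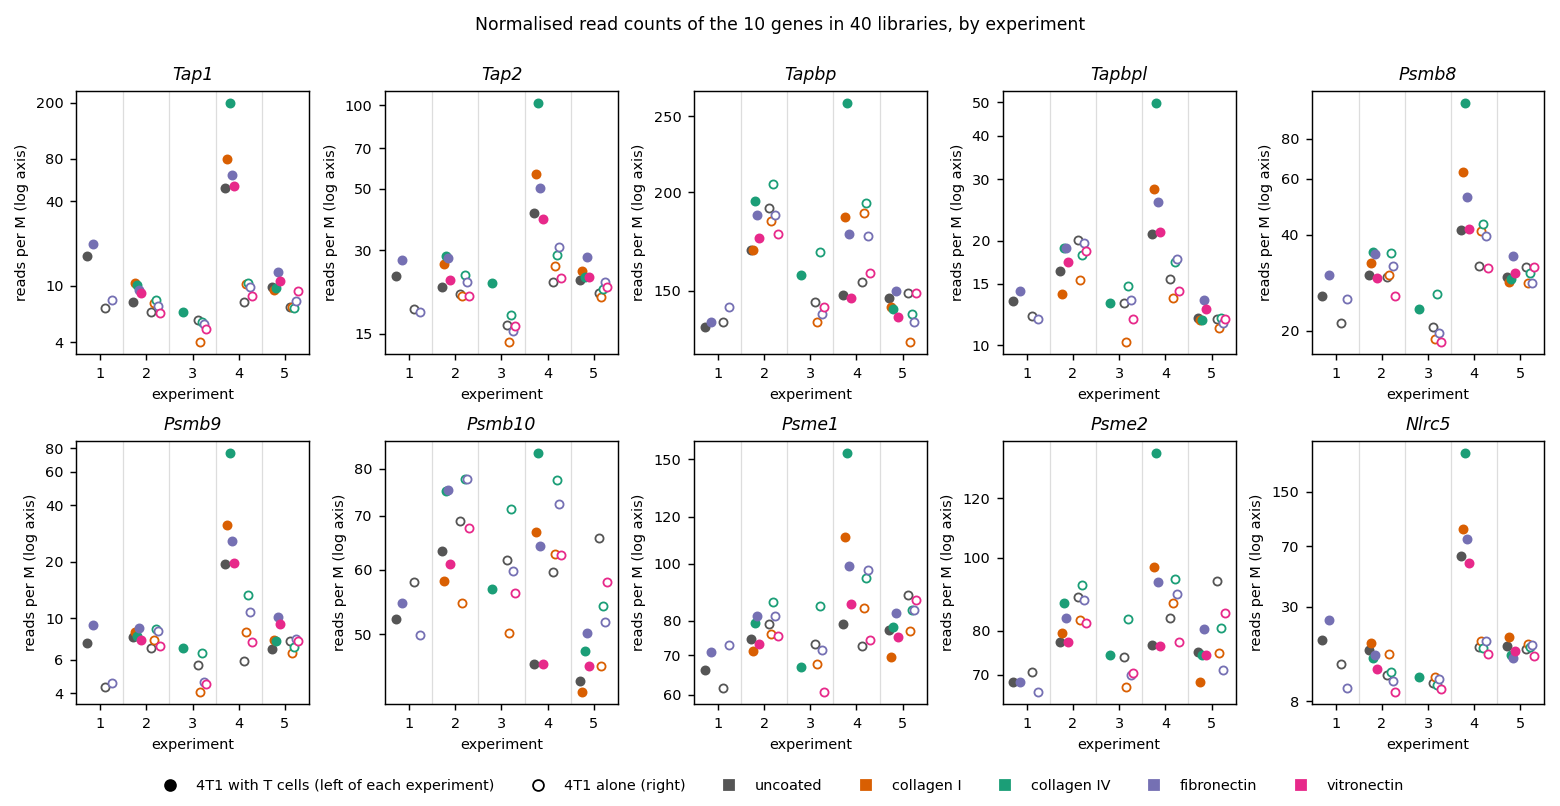
Normalised read count (reads per M, log axis) of each gene in each of the 40 libraries, by experiment, with co-cultures as filled points on the left and 4T1 alone as open points on the right, coloured by substrate. Tap1 in the co-cultures of experiment 4 lies between 49.7 and 200 per M, above all other libraries.

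Both pump genes were higher with T cells in every pair of wells. Tap1, one of the pair of ATP-driven pump subunits, had 200 per M on collagen IV, 79.0 on collagen I, 61.2 on fibronectin, 50.9 on vitronectin and 49.7 on uncoated plastic in the co-cultures of experiment 4. The matching wells of 4T1 alone had 10.5, 10.4, 9.75, 8.43 and 7.70 per M. In experiment 1 Tap1 stood at 19.7 per M on fibronectin and 16.2 on uncoated plastic with T cells, against 7.91 and 6.97 per M in 4T1 alone. Its values in these 2 experiments did not overlap between wells with and without T cells. In the other 3 experiments Tap1 was 6.48 to 12.6 per M with T cells and 3.99 to 9.15 per M alone, and these ranges overlap. Compared well by well, Tap1 was higher with T cells in 18 of 18 pairs that share substrate and experiment, by 1.17-fold to 19-fold with a median of 1.39-fold. Tap2 was also higher in 18 of 18 pairs. It had 102 per M on collagen IV, 56.5 on collagen I, 50.3 on fibronectin, 40.8 on uncoated plastic and 38.8 on vitronectin in the co-cultures of experiment 4, against 28.8, 26.3, 30.7, 23.1 and 23.9 per M in their wells of 4T1 alone. In the other 4 experiments it was 22.2 to 28.6 per M with T cells and 14.0 to 24.4 per M alone. Outside experiment 4 the mean difference over 13 pairs was 0.48 for Tap1 and 0.27 for Tap2 on the log2(value + 1) scale, each in the same direction in 13 of 13 pairs. Pairs of the same experiment are not independent repeats. The share of all genes with the same direction in every pair was not counted.

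Of the loading chaperones, Tapbpl rose in experiment 4 and passed in none of the other 4, and Tapbp passed in none of the 5. Tapbpl had 49.9 per M on collagen IV, 28.1 on collagen I, 25.9 on fibronectin, 21.2 on vitronectin and 20.9 on uncoated plastic in the co-cultures of experiment 4, against 17.3, 13.7, 17.7, 14.3 and 15.5 per M in 4T1 alone. All 5 co-cultures lay above all 5 wells without T cells there. In the other experiments it was 11.8 to 19.1 per M with T cells and 10.2 to 20.1 per M alone, higher in 7 of 13 pairs. Tapbp, the gene of tapasin, ranged over 135 to 260 per M with T cells (median 154, n = 18) and 129 to 205 per M alone (median 152, n = 22). It was higher in 6 of 18 pairs, and its difference over all substrates was 0.02 ± 0.07 (adjusted p = 0.810 by limma).

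Of the 3 immunoproteasome genes, Psmb9 passed over all substrates by limma, Psmb8 by edgeR or with the block, and Psmb10 passed as lower with the block. Psmb9, which takes the place of Psmb6, had 75.9 per M on collagen IV, 31.4 on collagen I, 25.8 on fibronectin, 19.6 on vitronectin and 19.4 on uncoated plastic in the co-cultures of experiment 4, against 13.3, 8.46, 10.8, 7.51 and 5.96 per M in 4T1 alone. In experiment 1 it had 9.25 and 7.35 per M with T cells, against 4.5 and 4.33 per M alone, again with no overlap. It was higher in 16 of 18 pairs. Psmb8, which takes the place of Psmb5, had 104 per M on collagen IV, 63.0 on collagen I, 52.4 on fibronectin, 41.6 on vitronectin and 41.4 on uncoated plastic with T cells in experiment 4, against 43.1, 41.2, 39.6, 31.5 and 32.0 per M in 4T1 alone. Here the groups overlap, since the lowest co-cultures lie below the highest wells without T cells. Psmb8 was higher in 14 of 18 pairs, and its difference over all substrates was 0.33 ± 0.14 (adjusted p = 0.0792 by limma, 0.0478 by edgeR on recovered reads). Psmb10, which takes the place of Psmb7, was 42.4 to 83.7 per M with T cells (median 55.8, n = 18) and 45.7 to 77.7 per M alone (median 60.8, n = 22). It was higher in 4 of 18 pairs, and its difference was −0.13 ± 0.08 (adjusted p = 0.190 by limma). With values scaled to the epithelial markers instead, its difference was 0.07 (0.626), while that of all genes had a median of 0.17.

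Neither activator ring gene passed over all substrates, and Psme1 rose in experiment 4. Psme1 was 66 to 154 per M with T cells (median 77.6, n = 18) and 60.6 to 97.6 per M alone (median 77.9, n = 22). Psme2 was 68.4 to 138 per M with T cells (median 76.9) and 66.3 to 93.8 per M alone (median 82.4). The highest value of each was the co-culture of experiment 4 on collagen IV. Over all substrates the difference was 0.05 ± 0.08 for Psme1 (adjusted p = 0.633 by limma) and 0.00 ± 0.06 for Psme2 (0.976), and they were higher in 6 and 5 of 18 pairs. Nlrc5, the transactivator, had 260 per M on collagen IV, 89.5 on collagen I, 78.2 on fibronectin, 60.9 on uncoated plastic and 55.8 on vitronectin in the co-cultures of experiment 4, against 16.8, 18.5, 18.7, 17.0 and 15.5 per M in 4T1 alone. In experiment 1 it had 25.1 and 18.8 per M with T cells, against 9.68 and 13.4 per M alone. In experiment 5 the groups overlap, with 14.6 to 19.7 per M with T cells and 15 to 17.9 per M alone. Over all experiments it was higher in 16 of 18 pairs.

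**Figure D2:**
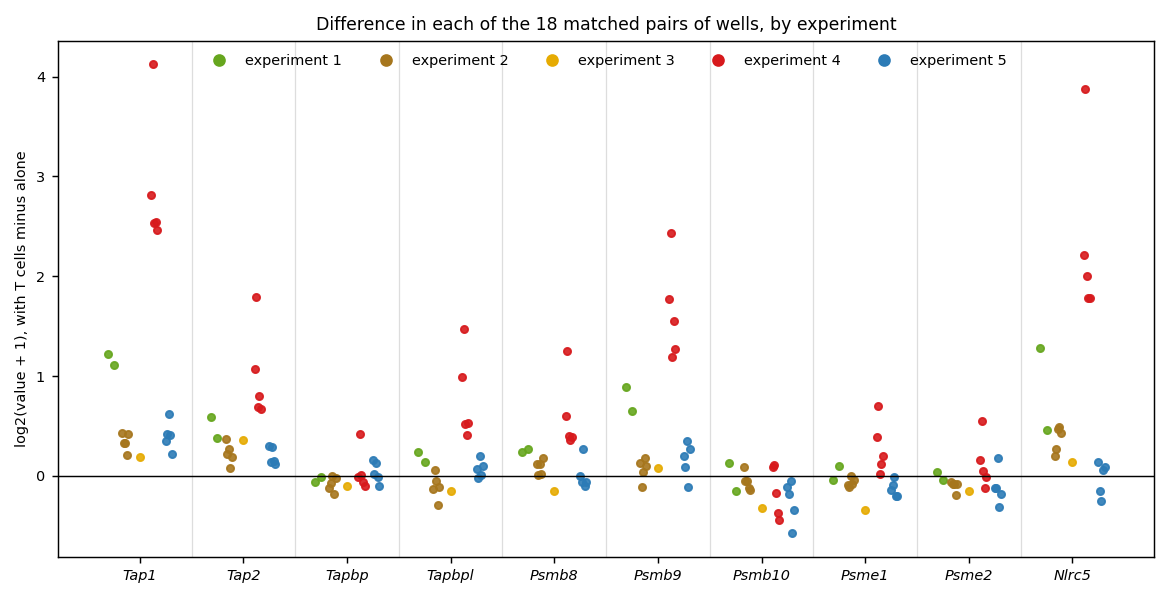
Difference in log2(value + 1) between the well with T cells and the well of 4T1 alone that share substrate and experiment, for the 18 such pairs, coloured by experiment. All 18 points of Tap1 and of Tap2 lie above 0, and those of experiment 4 are the highest for Tap1, Tap2, Tapbpl, Psmb8, Psmb9 and Nlrc5.

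Whether the T cell effect was the same in each experiment was tested in a model with substrate, experiment and 1 T cell effect per experiment. Wells on different substrates within the experiments gave the spread, which was pooled over all experiments. A p-value for 1 experiment therefore does not measure how far its effect repeats in other experiments. The effect differed between experiments for 7 of 10 genes, where 45.1% of all genes tested were called. These were Tap1 (adjusted p = 7.14e-10 by limma), Nlrc5 (8.90e-08), Psmb9 (2.47e-05), Tapbpl (2.71e-04), Tap2 (7.92e-04), Psmb8 (0.0211) and Psme1 (0.0219). In experiment 4 the same 7 rose and 0 fell, where 64.3% of all genes were called, 32.4% higher and 32.0% lower. There Tap1 rose by 2.90 ± 0.18 (2.26e-15), Nlrc5 by 2.33 ± 0.19 (3.50e-12), Psmb9 by 1.64 ± 0.18 (1.97e-09), Tap2 by 1.01 ± 0.12 (6.07e-09), Tapbpl by 0.78 ± 0.11 (4.47e-07), Psmb8 by 0.60 ± 0.12 (4.29e-05) and Psme1 by 0.29 ± 0.09 (0.00457). Without the collagen IV co-culture of experiment 4, where T cell markers were highest, the same 7 rose, Tap1 by 2.56 ± 0.10 and Nlrc5 by 1.95 ± 0.09, and Psmb10 passed as lower (−0.24 ± 0.10, adjusted p = 0.0346). The share of all genes called in that fit is not given here. In experiment 1 only Tap1 passed (1.17 ± 0.29, adjusted p = 0.0108), where 3.17% of genes were called and 3.16% were called higher. In experiments 2, 3 and 5 none of the 10 passed by limma or by edgeR, where limma called 1.35%, 0.646% and 4.37% of genes. At an unadjusted p under 0.05 by limma the counts were 0, 0 and 2 (Tap1, and Psmb10 at −0.25 ± 0.10), where 10.2%, 13.5% and 21.5% of genes passed, and by edgeR 0, 0 and 1 (Psmb10). Tap1 differed there by 0.34 ± 0.18, 0.05 ± 0.33 and 0.40 ± 0.18. These SE use the pooled spread, experiment 4 included. The SD of Tap1 over 5 pairs was 0.09 in experiment 2, 0.14 in experiment 5 and 0.70 in experiment 4. All 5 pairs of experiment 2 (0.21 to 0.43) and all 5 of experiment 5 (0.22 to 0.62) were higher with T cells. Set against the mean of experiments 1, 2 and 5, the effect in experiment 4 was larger for the same 7 genes, where 51.4% of all genes were called and 28.2% were called larger. Between experiments 5 and 2 none of the 10 differed by limma, adjusted or at an unadjusted p under 0.05, where 0.034% and 11.7% of genes did. Both of these contrasts between experiments were chosen with earlier results of these data known, so they restate a difference already seen.

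The experiments also differed in how much T cell RNA they held, and the genes of the set can be read beside it. Over the 5 co-cultures of experiment 4 the sum of T cell markers was 3681 per M on collagen IV, 1454 on vitronectin, 1312 on collagen I, 1281 on uncoated plastic and 1213 on fibronectin. Ptprc, the gene of the leukocyte surface protein CD45, had 659, 277, 229, 248 and 213 per M in these wells. Collagen IV was highest for the markers and for all 10 genes of the set. Below it the orders differ: vitronectin held more T cell marker RNA than collagen I and fibronectin, while Tap1, Tap2, Psmb8, Psmb9, Tapbpl and Nlrc5 were lower on vitronectin than on either. In experiments 2 and 5, with marker sums of 37.5 to 60.7 and 22.7 to 52.0 per M, Tap1 was 7.66 to 10.5 and 9.34 to 12.6 per M in co-culture. The part of T cell RNA in the differences of the set was not tested.

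**Figure D3:**
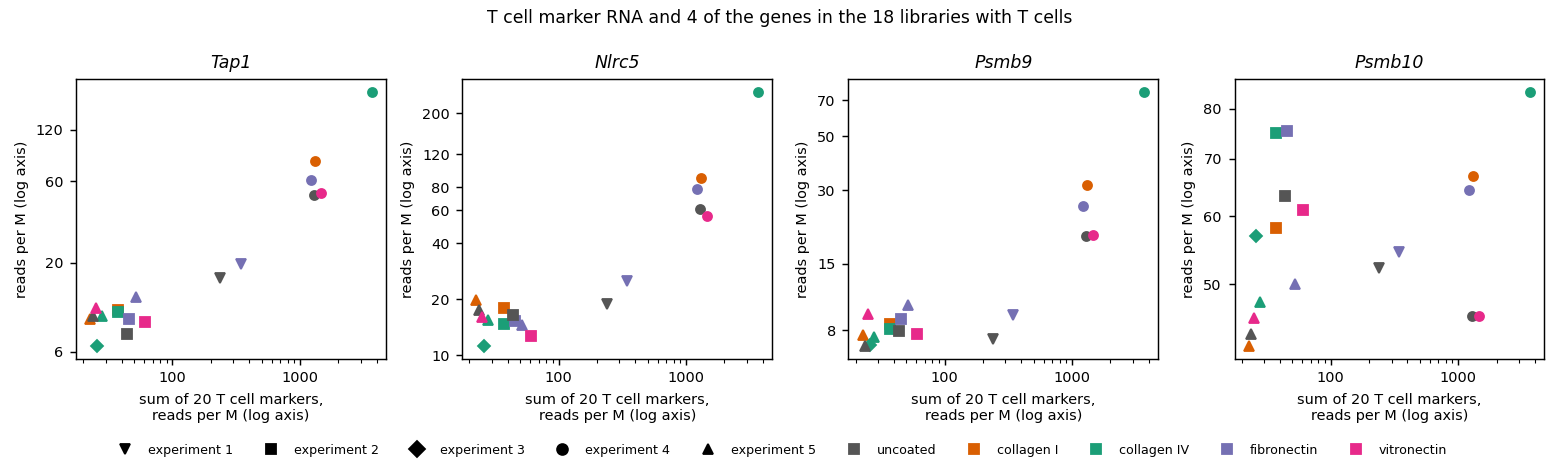
Sum of 20 T cell markers (reads per M, log axis) against Tap1, Nlrc5, Psmb9 and Psmb10 (reads per M, log axis) in the 18 co-culture libraries, with the experiment as the marker shape and the substrate as the colour. The 5 wells of experiment 4 lie apart at 1213 to 3681 per M of T cell markers, and Psmb10 in them spans 45.9 to 83.7 per M, against 42.4 to 75.3 per M in the other 13.

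Immunoproteasome genes were also set against the constitutive subunit that each replaces, per kb of exon. Psmb8 stood at 23.5% ± 13.9 of Psmb5 with T cells (SD, n = 18) and at 15.1% ± 3.88 alone (SD, n = 22). In experiment 4 the ratio was 40.7% ± 16.9 with T cells and 19.2% ± 3.45 alone (SD, n = 5 each). Psmb9 stood at 7.38% ± 8.78 of Psmb6 with T cells (SD, n = 18) and at 2.88% ± 0.962 alone (SD, n = 22), and in experiment 4 at 17.4% ± 12.3 and 3.83% ± 1.20 (SD, n = 5 each). Both ratios were higher with T cells in 17 of 18 pairs. Psmb10 stood at 62.0% ± 19.1 of Psmb7 with T cells (SD, n = 18) and at 60.1% ± 9.18 alone (SD, n = 22), and was higher in 8 of 18 pairs. These ratios do not depend on how libraries are scaled, but they carry the change of both subunits. The values are descriptions, with no test.

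**Figure D4:**
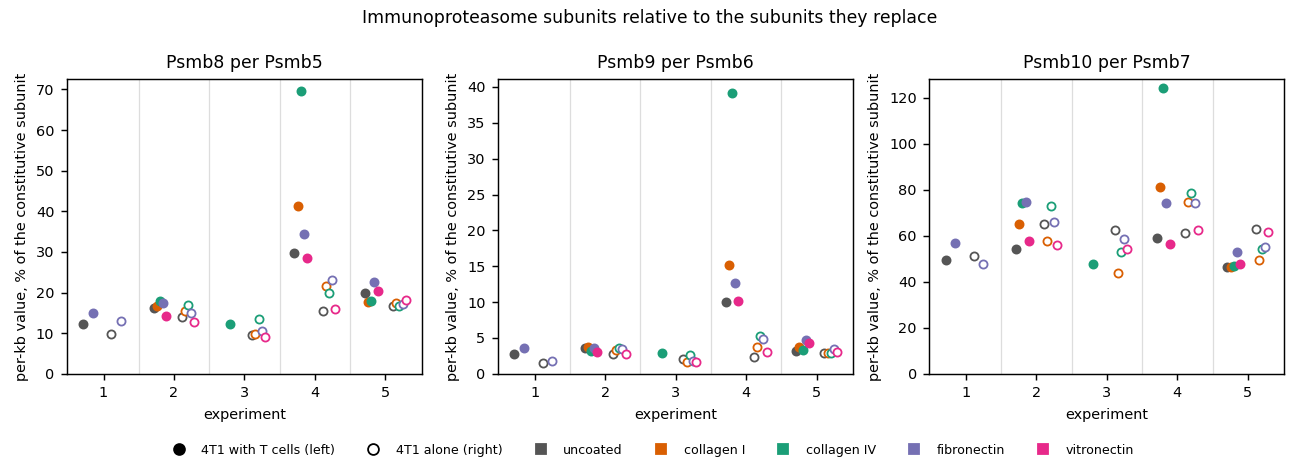
Psmb8 relative to Psmb5, Psmb9 relative to Psmb6 and Psmb10 relative to Psmb7 (per-kb values, % of the constitutive subunit) in each of the 40 libraries, by experiment, with co-cultures as filled points on the left and 4T1 alone as open points on the right. The co-cultures of experiment 4 reach 69.5% for Psmb8 and 39.2% for Psmb9, while the ratio of Psmb10 overlaps between wells with and without T cells in each of experiments 1, 2, 4 and 5.

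Of the constitutive catalytic subunit genes, 2 of 3 fell with T cells at the deposited scaling. Psmb5 fell by 0.19 ± 0.05 (adjusted p = 0.0175 by limma) and Psmb6 by 0.15 ± 0.04 (0.00946), while Psmb7 differed by −0.14 ± 0.06 (0.0789), so 2 of 3 passed as lower, where 12.2% of all genes did, and 3 of 3 with the replicate block, where 23.4% did. With values scaled to epithelial markers Psmb5, Psmb6 and Psmb7 differed by 0.01, 0.04 and 0.06 and none passed. Relative to the median of all genes under that scaling they were at −0.16, −0.13 and −0.11. Beside the same 12.2% of all genes, 5 of 11 other core subunit genes fell, among them Psma7 (−0.16 ± 0.03, adjusted p = 0.00133) and Psmb2 (−0.12 ± 0.03, 0.00522), and 0 rose. Of 8 other activator and assembly genes 4 fell, with Psmg4 (−0.18 ± 0.05, 0.0126) and Psmg3 (−0.17 ± 0.04, 0.0108), assembly chaperones, furthest. With the epithelial scaling these 9 genes all stood between 0.01 and 0.09, and none passed. Among 5 cytosolic peptidase genes tested, Thop1 (−0.18 ± 0.05, 0.0202) and Lap3 (−0.17 ± 0.05, 0.0122), whose products trim peptides, fell at the deposited scaling (3 lower and 1 higher with the replicate block) and stood at 0.02 each with the epithelial scaling.

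Downstream of loading, none of the 5 class I heavy chain and B2m genes passed over all experiments by limma, while edgeR called 3 and limma with the replicate block 2 as higher, B2m and H2-K1 in both, where 17.2% and 22.4% of all genes were called higher. H2-K1, a classical heavy chain, differed by 0.35 ± 0.14 (adjusted p = 0.0642 by limma), B2m, the light chain, by 0.28 ± 0.11 (0.0614) and H2-D1 by 0.19 ± 0.10 (0.152). In experiment 4 all 5 rose, where 32.4% of all genes were called higher. There H2-K1 rose by 0.91 ± 0.11 (adjusted p = 1.86e-08 by limma), B2m by 0.81 ± 0.08 (4.49e-10) and H2-D1 by 0.44 ± 0.09 (1.02e-04). H2-K1 had 1458 per M on collagen IV and 647 to 725 per M on the other 4 substrates in the co-cultures of experiment 4, against 402 to 443 per M in 4T1 alone. Of 8 endoplasmic reticulum chaperone and trimming genes, the aminopeptidase genes Lnpep (0.44 ± 0.10, 0.00655) and Erap1 (0.17 ± 0.05, 0.0268) rose and 6 did not pass, where 13.1% of all genes rose. With the epithelial scaling Lnpep and Erap1 did not pass either (adjusted p = 0.0598 and 0.0984).

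Of 14 tested regulators of class I transcription 1 rose, where 13.1% of all genes did, and with the replicate block 4 were higher and 2 lower, where 22.4% and 23.4% of all genes were. The gene that rose was Irf2, a factor that binds interferon-stimulated elements (0.25 ± 0.08, adjusted p = 0.0287 by limma). Irf1 differed by 0.12 ± 0.17 (adjusted p = 0.603) over all experiments and rose by 0.49 ± 0.12 (5.79e-04) in experiment 4. In experiment 4 alone 7 of the 14 were higher and 1, Rfxap, lower, where 32.4% and 32.0% of all genes were. Irf9, the DNA-binding subunit of a factor that type I interferon activates, rose there by 1.77 ± 0.17 (adjusted p = 1.13e-10 by limma) and Irf2 by 0.73 ± 0.09 (1.52e-08); Irf9 and Rfxap were picked after their values were seen. Rfx5, a subunit of the factor that docks Nlrc5 at class I promoters, differed by −0.01 ± 0.04 (0.784). Ciita, the class II counterpart of Nlrc5, was below the filter with at most 0.898 per M with T cells and 0.432 per M alone. Ifng, the gene of interferon gamma, was also below the filter, at 0.111 to 0.567 per M in co-cultures of experiment 4, listed at 0 in 4T1 alone of that experiment, and at most 0.26 per M in the other co-cultures and 0.108 per M in the other wells without T cells. Of 7 tested genes of the interferon gamma receptor and its feedback 4 rose, beside 13.1% of all genes, with the receptor gene Ifngr1 (0.86 ± 0.23, 0.0121) and the feedback inhibitor gene Socs1 (0.59 ± 0.22, 0.0441) furthest. Irf2 and Socs1 did not pass with the epithelial scaling (adjusted p = 0.0831 and 0.0847).

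No difference between substrates in the set passed. With each coat set against uncoated plastic, 0 of 40 tests passed in co-culture by limma and by edgeR, where 0.0051% and 0.0017% of the same tests over all genes did. At an unadjusted p under 0.05 the counts in co-culture were 1 of 40 by limma (Psme2 on collagen IV, 0.28 ± 0.14) and 5 of 40 by edgeR, where 1.76% and 1.89% of the tests over all genes passed. In 4T1 alone 0 of 40 passed by limma and by edgeR, where 0.0255% and 0.0221% of the tests over all genes did. There the unadjusted counts were 0 of 40 by both, where 2.44% and 2.46% passed. The differences ran between −0.09 and 0.49 in co-culture and between −0.24 and 0.46 in 4T1 alone, with SE of 0.14 to 0.77 and 0.12 to 0.67. The highest of each was Psmb9 on collagen IV, at 0.49 ± 0.49 in co-culture and 0.46 ± 0.47 in 4T1 alone. With the replicate block 0 of 40 passed in co-culture by limma and by edgeR as well, where 0.151% and 0.138% of the tests over all genes did. At an unadjusted p under 0.05 the blocked counts were 7 of 40 by limma and 9 of 40 by edgeR, where 5.45% and 5.81% of the tests over all genes passed. All but 1 of them (Psmb10 on fibronectin) were on collagen IV by both tools. The collagen IV co-cultures include that of experiment 4, with the highest T cell marker sum (3681 per M), and its part in these counts was not tested. In 4T1 alone the block gave 0 of 40, and 1 of 40 unadjusted (Psmb10 on collagen I), by both tools, where 6.96% (limma) and 7.06% (edgeR) of the tests over all genes passed unadjusted. The test over all 5 substrates called 0 of 10 genes in co-culture by limma and by edgeR, where 0.129% and 0.0884% of all genes were called, and 0 of 10 in 4T1 alone, where 0.252% and 0.245% were. The unadjusted counts were 0 of 10 by both tools in both, where 2.84% (limma) and 2.90% (edgeR) of all genes passed in co-culture and 3.56% and 3.63% in 4T1 alone. With the block 0 of 10 passed in either, and the unadjusted counts were 3 (limma) and 5 (edgeR) of 10 in co-culture, where 9.57% and 10.1% of all genes passed, and 1 of 10 by both in 4T1 alone, where 13.1% and 13.5% did.

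**Figure D5:**
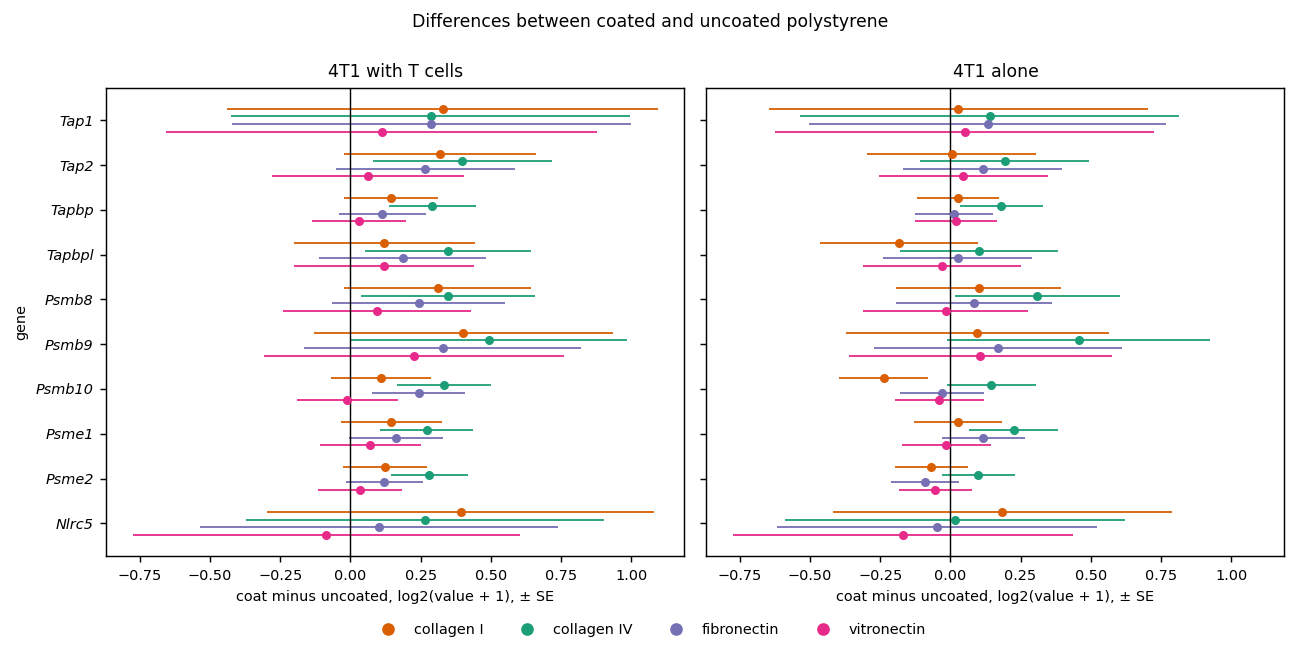
Difference in log2(value + 1) between each coat and uncoated plastic (points, limma estimate ± SE) for the 10 genes, in co-culture on the left and in 4T1 alone on the right. The bars of Tap1 and Nlrc5 are the widest, with SE of 0.57 to 0.77, and no difference passed the test.

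The T cell effect could also be asked of each substrate alone. None of 50 tests passed by limma or by edgeR, where 0% and 0.656% of the same tests over all genes did. At an unadjusted p under 0.05 the counts were 1 of 50 by limma (Tap2 on collagen I, 0.74 ± 0.34) and 9 of 50 by edgeR, where 6.64% and 11.1% of the tests over all genes passed. With the replicate block limma called 0 of 50 and edgeR 2 of 50, Tap1 (1.78, adjusted p = 0.0456) and Tap2 (0.76, 0.0185) on collagen IV, where 0.756% and 5.34% of the tests over all genes passed. The unadjusted blocked counts were 10 of 50 by limma and 12 of 50 by edgeR, where 18.1% and 19.9% of the tests over all genes passed. The difference for Tap1 was 1.42 ± 0.77 on collagen I, 1.28 ± 0.67 on fibronectin, 1.27 ± 0.71 on collagen IV, 1.18 ± 0.77 on vitronectin and 1.12 ± 0.67 on uncoated plastic. For Nlrc5 it was 1.03 ± 0.64 on collagen IV, 0.99 ± 0.69 on collagen I, 0.93 ± 0.61 on fibronectin, 0.87 ± 0.69 on vitronectin and 0.78 ± 0.61 on uncoated plastic. The T cell effect on a coat differed from that on uncoated plastic in 0 of 40 tests by limma and by edgeR, where 0% of the tests over all genes passed by each. The unadjusted counts were 0 of 40 by both, where 0.775% and 0.849% of the tests over all genes passed. With the block they were 0 of 40, and 1 of 40 unadjusted (Psmb10 on collagen I), by both, where 3.39% and 3.45% of the tests over all genes passed unadjusted. These differences ran between 0.01 and 0.35 with SE of 0.18 to 1.02, and all are taken against the same uncoated wells.

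Apart from Nlrc5 the genes also varied together in 4T1 alone, as a description over 22 wells after each experiment's mean was taken out, with no p. The wells share experiments and depth. Tapbp and Psmb8 had the highest correlation within the set (r = 0.922), and Tap1 and Tapbpl the lowest with Nlrc5 left out (0.311). Nlrc5 ran apart, with r from −0.320 to Tapbpl and −0.269 to Psmb10 up to 0.080 to Psmb8. Correlations between genes outside the set were not computed for comparison. Among 14691 other genes the 3 most like Psmb8 were Cd74 (r = 0.909), the class II invariant chain gene, Rtp4 (0.902) and the interferon-stimulated gene Isg15 (0.892). Those most like Tap1 were Apol9b (0.853), Wbp2 (0.805) and Scx (0.803). Those most like Psme1 were the interferon-inducible GTPase gene Ifi47 (0.886), Gm6170 (0.880) and the ribosomal protein gene Rpl4 (0.870). Those most like Nlrc5 were Fgd4 (0.897), Ptpn13 (0.868) and Synj2 (0.823). No gene was among the 3 nearest of more than 1 of these 4.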

How the data were processed

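RNA was sequenced as single reads of 75 bases from libraries made with the Illumina TruSeq RNA kit, per the labels' protocols; that kit does not mark strand. STAR 2.6, featureCounts, edgeR 3.31.7 and build mm10 are named, per the submitters' processing notes. The authors deposited 1 table of normalised signal, in which each value is a read count divided by a scaled library size. Whole reads, within 0.01, were recovered for 100% of values. Of 21349 lines, 1 duplicate (Cd3d) and 1 with a cell that holds no number (Ldha) were dropped. mm10 is a C57BL/6 assembly and 4T1 a BALB/c line; an effect on counting was not tested.

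For the main test limma 3.58.1 (R 4.3.3, with trend) was run on log2(value + 1): 10 group means over 40 libraries, 30 residual degrees of freedom, Benjamini-Hochberg adjustment over 14701 genes, threshold 0.05. Adding 1 understates changes of low genes. edgeR 4.0.16 (quasi-likelihood) on recovered reads called 3950 genes with T cells added, against 3710 by limma. The replicate number is the experiment in the labels; deviations from group means had a median correlation of 0.478 over 156 pairs of libraries of 1 experiment and −0.131 over 562 others. No 2 replicates were copies (chi-square per degree of freedom at least 6.52 in 62 pairs). Both tests were checked on simulated counts, which held no differences between experiments. That check cannot show how the main fit handles libraries of 1 experiment that vary together.

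The named genes are all members, and from other lists fixed genes and up to 2 passing genes with the largest difference. Members and lists were chosen with earlier results of these data known. Of 143 list symbols, 8 were not matched and are not analysed here. A further regulator gene and a promoter motif are not reported here. Values after ± are the SE of the limma fit for differences and the SD over libraries for levels and ratios. The limit of 3 reads covers counting error only.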

Additional observations from a re-analysis of the deposited data

Results flagged for a closer look

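In 80 sets of 4 or 5 libraries of 1 group and 1 gene, 13 had a library far from the others by Dixon's criterion, which chance meets in about 1 in 20 sets. Of the 13, 12 were co-cultures of experiment 4. On collagen IV these were Tap1 at 200 per M (the other 3 co-cultures at 6.48 to 10.2), Tap2 at 102 (22.8 to 28.6), Psmb8 at 104 (23.4 to 35.3), Psmb9 at 75.9 (6.95 to 8.06), Psme1 at 154 (66.9 to 79.5) and Nlrc5 at 260 (11.2 to 15.4). On fibronectin they were Tap2 at 50.3 (27.6 to 28.4), Psmb9 at 25.8 (8.87 to 10.1) and Nlrc5 at 78.2 (14.6 to 25.1). On uncoated plastic they were Tap2 at 40.8 (22.2 to 24.2), Psmb9 at 19.4 (6.89 to 7.97) and Nlrc5 at 60.9 (16.5 to 18.8). The remaining one was Psmb9 at 4.47 per M in 4T1 alone on vitronectin in experiment 3, below 7.09 to 7.54 in the other 3 wells. Collagen I and vitronectin co-cultures, with 3 libraries each, were not examined this way.

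The T cell effect differed between experiments for Tap1 (adjusted p = 7.14e-10 by limma), Nlrc5 (8.90e-08), Psmb9 (2.47e-05), Tapbpl (2.71e-04), Tap2 (7.92e-04), Psmb8 (0.0211) and Psme1 (0.0219).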

How the results depend on the processing

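Tap1 and Tap2 passed as higher with T cells under each of the 40 single-library omissions (1.04 to 1.36 and 0.46 to 0.60) and each of the 5 single-experiment omissions (0.58 to 1.62 and 0.36 to 0.70). The count of genes passing was 4, and 2 to 5 with 1 library and 2 to 4 with 1 experiment left out. The fifth was Psmb8 (0.38, adjusted p = 0.037), without the co-culture of experiment 3 on collagen IV. The count was 7 with the replicate block by limma and by edgeR, and 1 (Tap1) with values scaled to epithelial markers, where 372 of all genes passed and the median of all genes was 0.17. Of all genes 3710 passed, 6726 with the replicate block, 1365 without experiment 3 and 430 without experiment 4. Tests on single substrates passed in 0 cases, and in 2 (Tap1 and Tap2, both on collagen IV) by edgeR with the replicate block and in 2 (both on fibronectin) with the block and without experiment 4. Coats in 4T1 alone gave 0, and 1 (Psmb10, lower) with the block and without experiment 4, where the test over all substrates also gave 1. The count of T cell effects that differ between experiments was 7, and 3 to 7 with 1 experiment left out (3 without experiment 4: Tap1, Nlrc5 and Psmb9) and 6 to 7 with 1 library left out. The gene lost from these 7 was Psme1, when 1 library of experiment 4 was left out (the co-culture on collagen I or collagen IV, or 4T1 alone on uncoated plastic or vitronectin). The replicate block changed no other count of the set at the adjusted threshold. For tests on single substrates, on coats and between experiments, shares of all genes are not given with an experiment or a library left out. Those counts thus cannot be set against all genes here.

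Directions turned for 4 genes that did not pass in the main test, and none passed at a turned value. Psmb10 (−0.13, and lower with the block) stood at 0.067 with epithelial scaling, still below the median of all genes there (0.17). Psme1 stood at −0.0885 with the block and without experiment 4, and over single omissions at −0.0514 to 0.115 (experiments) and −0.0015 to 0.0781 (libraries). Psme2 stood at −0.0336 with the block, −0.0238 by edgeR with the block, and −0.0413, −0.0131, −0.0199, −0.0847 and −0.0087 with the block and without experiments 1 to 5 in turn. Over single omissions it stood at −0.0515 (−0.0199 without experiment 3) to 0.0486 (experiments) and −0.0375 to 0.0268 (libraries). Tapbp stood at −0.0073 with the block, −0.0052, −0.0171 and −0.0326 with the block and without experiments 1, 4 and 5, and −0.0088 to 0.0496 over single libraries left out. The cause was not tested. Alternatives with the block and 1 experiment left out were chosen after seeing the data. All genes of the set lay far above the counting limit. With 3 to 5 libraries a group, no difference between substrates in the set passed in the main test, and the reason was not tested.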
